A study of Mus musculus with 4 samples.

Results

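Ion channel genes of mouse rib chondrocytes were followed across cells with and without Eed, a core subunit of Polycomb repressive complex 2 (PRC2), which places the silencing mark H3K27me3 on chromatin. Members were taken by symbol from the deposited array annotation and comprise the numbered genes of the potassium (Kcn), voltage-gated sodium (Scn), voltage-gated calcium (Cacn), transient receptor potential (Trp), ClC chloride (Clcn) and anoctamin (Ano) families, with their named accessory subunits. A total of 173 of 22305 genes on the array fitted this rule, in 20 families, and 1 of them, Trpc4ap, encodes a protein that binds a channel and is no channel itself. Expression was read on 4 Affymetrix Mouse Gene ST 1.0 arrays, 2 with RNA of Eed cKO cells and 2 with RNA of Wt cells. Eed cKO cells came from pups in which Cre, driven by the Col2a1 promoter, deletes a floxed Eed gene, so that cells which never used that promoter would keep Eed, and Wt cells came from wild-type pups. All pups were newborn (P0.5) and of a mixed C57B6 and 129Sv background, and all cells were kept overnight in DMEM with fetal calf serum. The labels call the samples biological duplicates without saying how many pups an array stands for, so p-values measure the spread between these samples only.

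Ion channels set the membrane potential and let calcium, sodium, potassium or chloride cross the membrane. Potassium channels hold the potential down, voltage-gated calcium channels turn a change of potential into calcium entry, and channels opened by calcium feed back on both. Cartilage cells are not electrically excitable in the manner of neurons, but they meet changes of load and osmolarity, for which the cation channel Trpv4 is the best known sensor in chondrocytes, and their volume depends on potassium and chloride flow. ClC proteins inside the cell acidify or balance endosomes and lysosomes, and anoctamins are either calcium-activated chloride channels or proteins that move lipids between the leaflets of the membrane. Many of these genes are best known from nerve and muscle.

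The promoters of 4 members that passed the test are shown because they include CG-poor and CG-rich ones and both directions of change, with the gene that rose most first. Each line gives the 250 bases before the most upstream RefSeq start of the gene (build GRCm38.p6), 5′ to 3′ on the gene's own strand, with every CG in capitals.
Ano3: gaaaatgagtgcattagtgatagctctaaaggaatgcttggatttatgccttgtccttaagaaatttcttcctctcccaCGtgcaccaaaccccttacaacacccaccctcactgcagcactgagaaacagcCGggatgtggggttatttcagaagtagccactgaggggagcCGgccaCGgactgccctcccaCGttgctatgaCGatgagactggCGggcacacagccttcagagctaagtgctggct
Kcnn4: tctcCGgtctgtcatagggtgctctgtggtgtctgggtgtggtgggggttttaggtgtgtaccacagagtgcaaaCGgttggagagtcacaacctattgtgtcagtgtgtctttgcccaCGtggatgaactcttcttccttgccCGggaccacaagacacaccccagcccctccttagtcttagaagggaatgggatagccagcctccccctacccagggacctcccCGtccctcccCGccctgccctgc
Cacnb2: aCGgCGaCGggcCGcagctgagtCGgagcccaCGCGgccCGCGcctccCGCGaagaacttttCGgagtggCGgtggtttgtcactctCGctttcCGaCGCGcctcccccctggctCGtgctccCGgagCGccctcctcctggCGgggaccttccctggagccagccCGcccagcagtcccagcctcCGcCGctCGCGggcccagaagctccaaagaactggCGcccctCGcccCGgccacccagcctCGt
Kcna6: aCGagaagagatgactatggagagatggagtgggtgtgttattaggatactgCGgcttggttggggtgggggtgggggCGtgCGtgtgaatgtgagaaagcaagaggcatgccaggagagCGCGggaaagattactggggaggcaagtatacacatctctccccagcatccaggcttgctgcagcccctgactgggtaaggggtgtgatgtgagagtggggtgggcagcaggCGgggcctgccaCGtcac
These bases lie at chr2:110950245-110950494 on the minus strand for Ano3, chr7:24370013-24370262 on the plus strand for Kcnn4, chr2:14604056-14604305 on the plus strand for Cacnb2 and chr6:126740675-126740924 on the minus strand for Kcna6. They hold 7 CG in Ano3, 6 in Kcnn4, 30 in Cacnb2 and 8 in Kcna6. A promoter window of 300 bases, of which 250 lie before the start, was at hand for 132 of the 173 members (76.3%), too few to describe CG content over all of them. Among the genes that moved, 18 of 21 had a window. With the richest window of each gene counted, the 15 that rose held 5 to 63 CG (median 26) and the 3 that fell 8 to 16 (median 10). The median was 16 over 15919 genes of the array with a window. That reference includes genes too dim to be tested, and tested members that did not pass are not shown beside it. Whether CG content goes with the direction of change was not tested. CG was searched on one strand, which gives the same count on the other, and 96.1% of all 19527 windows hold at least 1. Ano3 and Kcnn4, which rose most, were thus at the low end of the CG counts, with 8 and 6 in their richest window. The calcium channel genes Cacna1d, Cacna1c, Cacna2d1, Cacnb2 and Cacnb3 held 63, 57, 42, 35 and 29. High counts were not particular to calcium channel genes, since the potassium channel genes Kcnma1 and Kcnip3 held 36 and 28.

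To check the labels, Eed itself had signals of 1057 and 990 on the Eed cKO arrays, against 3597 and 3530 on the Wt arrays (log2 difference -1.77, SE 0.07, limma adjusted p = 7.59e-05). The cartilage genes Col2a1, Acan and Sox9 had signals of 27160 to 37497 in Eed cKO cells and 27918 to 37633 in Wt cells. Of the 8 chondrocyte markers read, Matn1 rose by 0.56 (limma adjusted p = 0.0136), Acan fell by 0.12 (limma adjusted p = 0.031) and 6 did not pass, and their summed signal was 205883 and 202897 in Eed cKO cells, against 205578 and 209388 in Wt cells. The median signal of an array lay between 830.4 and 837.4. The female-specific RNA Xist and the Y-linked gene Ddx3y differed between arrays across the groups, with Xist at 4845 and 17196 in Eed cKO 1 and 2 and at 17820 and 3634 in Wt 1 and 2, and Ddx3y at 4324 and 622 in Eed cKO 1 and 2 and at 192 and 4664 in Wt 1 and 2. Signals are linear array intensities as deposited, and a difference is always Eed cKO minus Wt on the scale log2(signal + 32), tested with limma over 14944 genes whose mean signal reached about 626. The brightest probe set stood for a gene, and signals of different genes are not comparable as RNA levels, since probes bind unequally.

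More ion channel genes rose than fell in Eed cKO cells. Of the 173 members 89 reached the signal filter and were tested, of which 17 rose, 4 fell and 68 did not pass (limma, adjusted p of 0.05 over all tested genes). The share that rose was 19.1% of the tested members, where 9.63% of all tested genes rose, and the share that fell was 4.49%, where 5.98% of all tested genes fell. No test of the list was made, and these shares only describe it. The median difference was 0.04 over the tested members and 0.00 over all tested genes. Among members, 3 rose at least 2-fold (Ano3, Kcnn4 and Kcnip3), where 0.97% of all tested genes did, and 0 of the 4 that fell by limma fell that far. At an unadjusted limma p under 0.05 there were 33 of the 89 members, where 30.5% of all tested genes were. The 21 genes that passed showed no overlap between the groups, which a test on the same values favours, so this adds no support. Such a gap was present in 34 tested members with Eed cKO higher and 19 with Eed cKO lower, where 31.1% and 29.1% of all tested genes showed it.

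**Figure D1:**
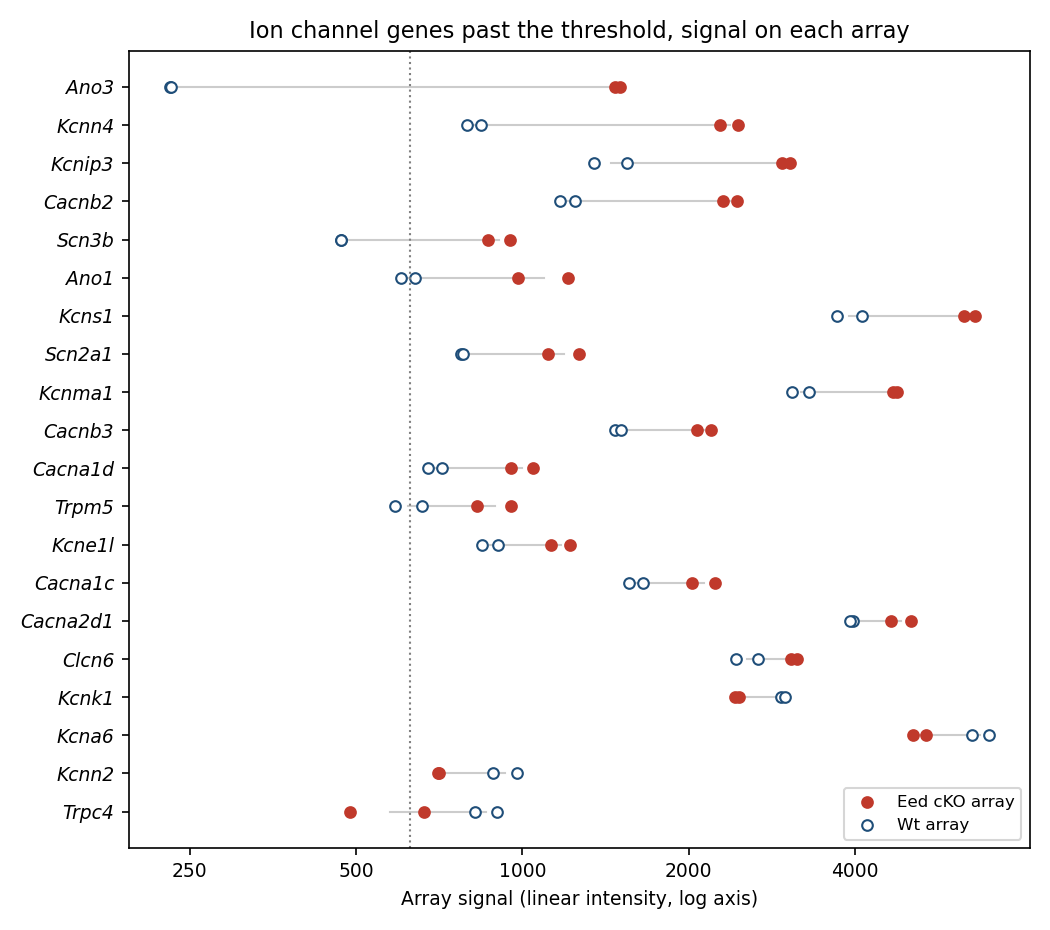
Signal on each array of 20 of the 21 ion channel genes that passed the test (horizontal axis, linear intensity on a log scale), in order of the log2 difference, with Eed cKO arrays filled red and Wt arrays open blue. Grey lines join the group means and the dotted line marks the filter level of 626, and in no row do the groups overlap.

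The filter acted on the mean of the 4 arrays, so a gene dim in one group could enter through the other. This was so for 6 members that lay under the filter level in Wt cells (Ano1, Ano3, Ano7, Kcne4, Scn3b and Trpm5) and 1 that lay under it in Eed cKO cells (Trpc4). The counts above and the family counts below include these members. Of these, Ano7 and Kcne4 did not pass and are named for this reason only. The other 84 members stayed under the filter, with mean signals of 194 to 618. When all 22305 genes were tested without a filter, the same 21 members passed and 0 of the 84 dim members did (smallest limma adjusted p = 0.127, 6 with an unadjusted p under 0.05), where 10.2% of all genes passed in that fit and 12.9% of all genes under the filter had an unadjusted p under 0.05. Differences of the dim members ran from -0.32 to 0.28. A dim signal does not show that a channel was absent, because no array background level was used here.

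**Figure D2:**
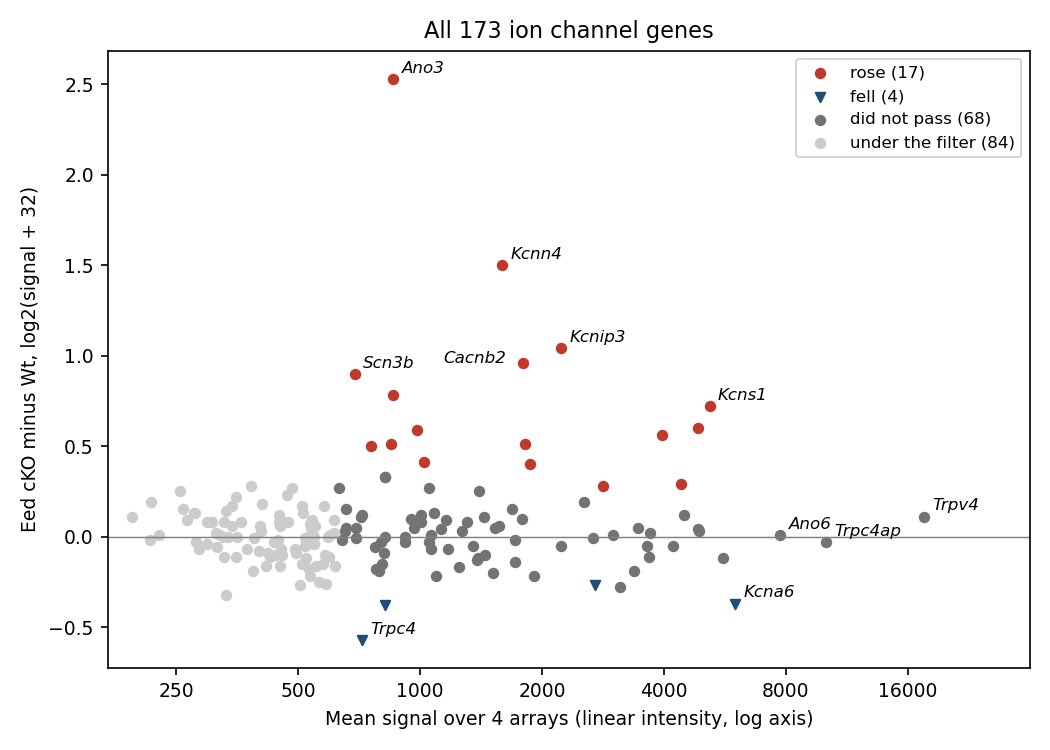
Difference between Eed cKO and Wt cells (vertical axis, log2(signal + 32)) against the mean signal over 4 arrays (horizontal axis, log scale) for the 173 ion channel genes, 1 point a gene. The 17 genes that rose (red) reach 2.53 for Ano3, the 4 that fell (blue triangles) reach -0.57 for Trpc4, and the 84 genes under the filter (light grey) lie between -0.32 and 0.28.

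Accessory subunits and pore-forming members can be set side by side by role. Of 36 accessory or associated members, Trpc4ap included, 21 were tested, of which 7 rose (33.3%), 0 fell by limma and 14 did not pass (median 0.11). The other 137 members were counted as pore-forming by family, including silent subunits such as Kcns1, ClC exchangers and anoctamins that move lipids. Of these 68 were tested, of which 10 rose (14.7%), 4 fell (5.88%) and 54 did not pass (median 0.03). Among all tested genes 9.63% rose and 5.98% fell. The difference between accessory and pore-forming members was not tested.

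**Figure D3:**
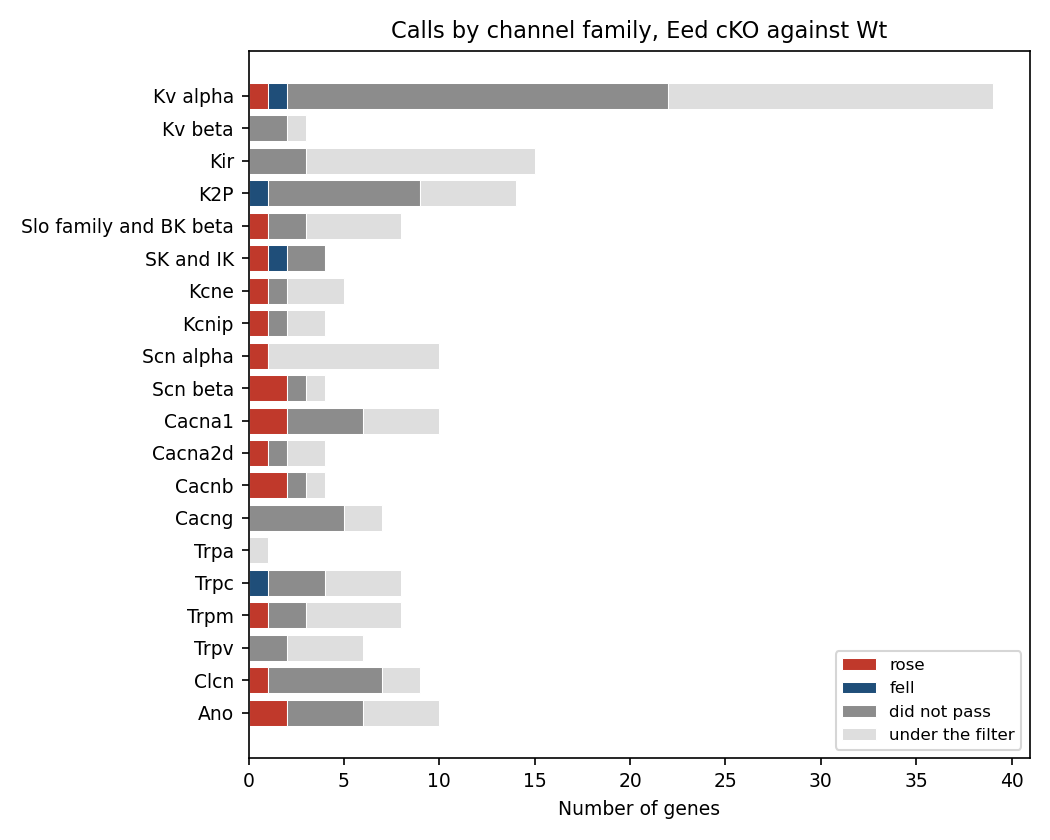
Number of genes in each of the 20 channel families (horizontal axis) that rose, fell, did not pass or stayed under the signal filter. Kv alpha is the largest family with 39 genes, of which 22 were tested, and of those 1 rose and 1 fell. Of the 4 Cacnb genes 3 were tested and 2 rose. Among all tested genes 9.63% rose and 5.98% fell.

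The anoctamin Ano3 changed more than any other ion channel gene tested. Its signals were 1473 and 1500 in Eed cKO cells, against 230 and 231 in Wt cells, a ratio of means of 6.44 (log2 difference 2.53, SE 0.08, limma adjusted p = 5.76e-05). In Wt cells the gene was far under the filter level, while both Eed cKO arrays were well above it. The Wt signals were not shown to lie above array background, so this ratio is one of deposited signals and may understate the difference in RNA. A second probe set of Ano3 gave 1524 and 1304 in Eed cKO cells and 312 and 223 in Wt cells, so both probe sets showed the gap. Ano3 is known mainly from the nervous system and, in rat sensory neurons, as a regulator of a sodium-activated potassium channel. Ano1, a calcium-activated chloride channel of glands and smooth muscle, had 983 and 1209 in Eed cKO cells, against 638 and 604 in Wt cells, and rose by 0.78 (SE 0.11, limma adjusted p = 0.00499). The anoctamin of the highest signal, Ano6, which scrambles membrane lipids, had 7913 and 7646 in Eed cKO cells and 8151 and 7312 in Wt cells, and its groups overlapped (difference 0.01, 95% interval -0.13 to 0.15). Ano10 did not pass either (0.12, limma adjusted p = 0.168). Of 6 anoctamins tested, 2 rose (33.3%) and 4 did not pass, where 9.63% of all tested genes rose. The 2 that rose lay under the filter level in Wt cells and entered the test through the Eed cKO arrays. Those that did not pass had differences of 0.01 to 0.15, and 4 more stayed under the filter.

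Of the calcium-activated potassium channels, 2 rose and 1 fell, where 9.63% of all tested genes rose and 5.98% fell. Kcnn4, the intermediate-conductance channel known from red blood cells and lymphocytes, had signals of 2284 and 2459 in Eed cKO cells, against 841 and 793 in Wt cells (ratio of means 2.90, log2 difference 1.50, SE 0.08, limma adjusted p = 0.000152). Kcnma1, the pore subunit of the large-conductance BK channel, had 4693 and 4770 in Eed cKO cells, against 3308 and 3078 in Wt cells (0.56, SE 0.06, limma adjusted p = 0.00183). Kcnn2, a small-conductance channel, went the other way with 704 and 707 in Eed cKO cells, against 978 and 886 in Wt cells (-0.38, SE 0.08, limma adjusted p = 0.0248), a call lost without Wt 1 (limma adjusted p = 0.175). The remaining small-conductance channel genes, Kcnn1 and Kcnn3, chosen after their values were seen, did not pass (-0.03 and 0.01). For each of the genes that passed the groups were separate, and the distance between them was several times the gap between replicates for Kcnn4 and Kcnma1. The accessory BK beta subunits and the sodium- and pH-gated relatives of Kcnma1 either did not pass (2 genes) or stayed under the filter (5 genes).

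Most of the other potassium channel genes did not pass. Of 92 members that encode potassium channels or their partners, the calcium-activated ones included, 47 were tested. Of these 5 rose (10.6%) and 3 fell (6.38%), while 39 did not pass (median -0.01). These shares were near those of all tested genes, of which 9.63% rose and 5.98% fell. Of 22 pore-type Kv subunits tested, 20 did not pass, with differences from -0.18 to 0.33. Kcns1, a silent subunit that forms no channel alone and modifies channels of the Kcnb family, had 6605 and 6306 in Eed cKO cells, against 4113 and 3705 in Wt cells (0.72, SE 0.07, limma adjusted p = 0.00101). Its groups were apart by far more than the gap between replicates. Kcna6, a delayed rectifier of the Shaker family, had 5088 and 5375 in Eed cKO cells, against 6510 and 6988 in Wt cells, and fell by 0.37 (SE 0.06, limma adjusted p = 0.00783). Kcnh2, a delayed rectifier best known from the heart and also chosen after its values were seen, had 860 and 970 in Eed cKO cells and 696 and 741 in Wt cells, just outside the threshold (0.33, limma adjusted p = 0.0515), and passed without Eed cKO 1 or with the replicate number as a block. The gene next to Kcna6 on chromosome 6, Kcna1, did not pass (0.06, limma adjusted p = 0.747).

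Among accessory subunits of potassium channels, Kcnip3 and Kcne1l rose. Kcnip3 encodes a calcium-binding protein, also called calsenilin or DREAM, which joins Kv channels of the Kcnd family and is known as a transcriptional repressor too. It had 2949 and 3057 in Eed cKO cells, against 1544 and 1349 in Wt cells (ratio of means 2.08, difference 1.04, SE 0.08, limma adjusted p = 0.00061). The X-linked gene Kcne1l, a single-pass regulatory subunit, had 1221 and 1129 in Eed cKO cells, against 847 and 904 in Wt cells (0.41, SE 0.08, limma adjusted p = 0.0185), a call lost without Wt 1 (0.118) or Wt 2 (0.0512). Within each group the array with less Xist had the higher Kcne1l signal, and the part of sex in this gene was not tested. Between the arrays low in Xist Kcne1l was at 1221 in Eed cKO cells and 904 in Wt cells, and between those high in Xist at 1129 in Eed cKO cells and 847 in Wt cells. Kcnab2, the brightest Kv beta gene, did not pass (-0.05, limma adjusted p = 0.721).

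Leak and inward rectifier channels, which set the resting potential, showed 1 change, a fall, where 5.98% of all tested genes fell. Kcnk1, a leak channel with paired pore domains, had 2422 and 2472 in Eed cKO cells, against 2934 and 2993 in Wt cells, and fell by 0.27 (SE 0.06, limma adjusted p = 0.0269), a call lost without Wt 1 (0.139) or Wt 2 (0.196). Both groups were tight and did not overlap. The other 8 leak channel genes tested did not pass, with differences from -0.22 to 0.27, among them Kcnk12 with 4624 and 5268 in Eed cKO cells and 4723 and 4912 in Wt cells. Of 15 inward rectifier genes 12 stayed under the filter and 3 did not pass, with Kcnj11, the pore of the ATP-sensitive channel, at -0.20 (95% interval -0.41 to 0.00).

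Of the voltage-gated calcium channel genes tested, 2 of 6 pore genes, 2 of 3 beta subunit genes and 1 of 2 alpha2delta subunit genes rose in Eed cKO cells. An L-type channel has a pore-forming alpha1 subunit, a cytoplasmic beta subunit that brings it to the surface, and an extracellular alpha2delta subunit. Cacnb2, a beta subunit, had 2306 and 2445 in Eed cKO cells, against 1172 and 1243 in Wt cells (ratio of means 1.97, difference 0.96, SE 0.07, limma adjusted p = 0.000563). Cacnb3, another beta subunit, had 2071 and 2192 in Eed cKO cells, against 1473 and 1508 in Wt cells (0.51, SE 0.07, limma adjusted p = 0.00488). The pore genes of both L-type channels tested rose less than Cacnb2 in these values, a difference between genes that was not tested. Cacna1c had 2029 and 2236 in Eed cKO cells, against 1557 and 1652 in Wt cells (0.40, SE 0.08, limma adjusted p = 0.0172), and Cacna1d had 1046 and 952 in Eed cKO cells, against 714 and 674 in Wt cells (0.51, SE 0.09, limma adjusted p = 0.00997). The alpha2delta subunit Cacna2d1, the binding site of gabapentin, had 5058 and 4654 in Eed cKO cells, against 3976 and 3925 in Wt cells (0.29, SE 0.06, limma adjusted p = 0.0204), and a second probe set was higher as well, by 0.31. In total 5 of 16 tested calcium channel genes rose (31.2%) and 0 fell by limma, where 9.63% of all tested genes rose and 5.98% fell. The other 11 did not pass, and the median was 0.10. None of the 5 gamma family genes tested passed, a family of which several members serve glutamate receptors, with Cacng7 at 4072 and 4197 in Eed cKO cells and 4591 and 4013 in Wt cells (-0.05, 95% interval -0.23 to 0.12). Cacna1g, the pore of a T-type channel and chosen after its values were seen, had 1532 and 1511 in Eed cKO cells and 1244 and 1299 in Wt cells and missed the threshold (0.25, limma adjusted p = 0.0592), but passed in the fit that left out the intensity trend. The call for Cacna1c was lost without Wt 1 (limma adjusted p = 0.099), and that for Cacna2d1 without Wt 1 (0.0646) or Wt 2 (0.0833).

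Of 14 voltage-gated sodium channel genes 4 were tested. The beta subunits are single-pass proteins that tune the pore and also act in cell adhesion. Of these, Scn3b had 948 and 868 in Eed cKO cells, against 470 on each of the Wt arrays (0.90, SE 0.08, limma adjusted p = 0.00105). Of the 10 alpha subunits, which form the pore, 9 stayed under the filter. The exception was Scn2a1 (current symbol Scn2a), a neuronal channel whose brightest probe set had 1269 and 1114 in Eed cKO cells, against 774 and 782 in Wt cells (0.59, SE 0.09, limma adjusted p = 0.00639). Scn2a1 has 16 probe sets, and they did not move together. Without overlap of the groups 9 were higher and 2 lower in Eed cKO cells, 5 overlapped, and the differences ran from -0.18 to 0.71. With the mean over its probe sets the difference was 0.24 and did not pass (limma adjusted p = 0.0839). Scn3a, the neighbour of Scn2a1 in a cluster of sodium channel genes, stayed under the filter.

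**Figure D4:**
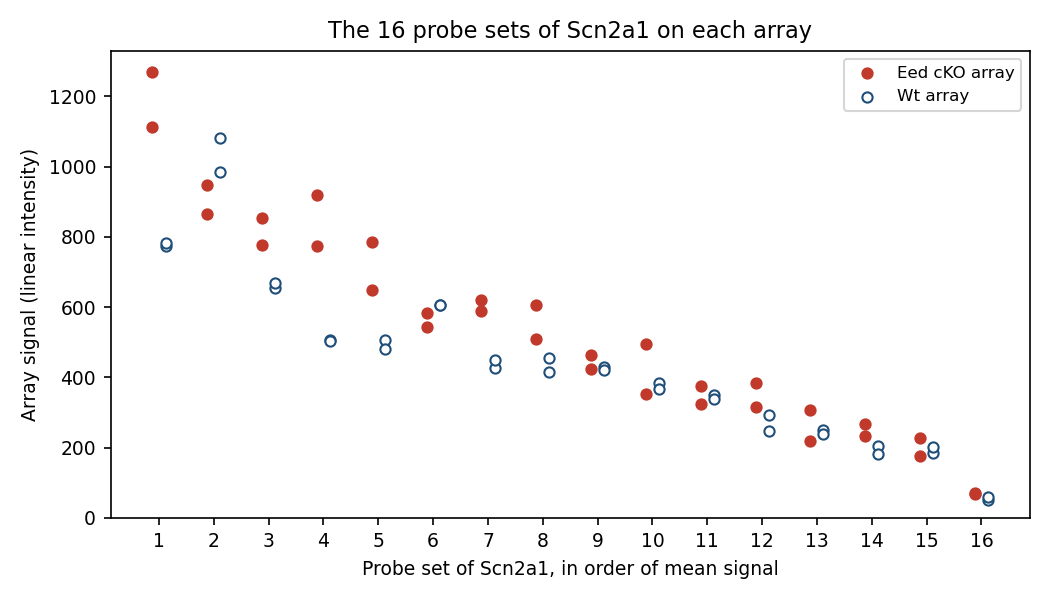
Signal of the 16 probe sets of Scn2a1 (horizontal axis, in order of mean signal) on each array (vertical axis, linear intensity), Eed cKO arrays filled and Wt arrays open. In 9 probe sets both Eed cKO points lie above both Wt points, in 2 they lie below and in 5 the groups overlap.

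Skeletal muscle, smooth muscle and nerve cells use many of these channels, and genes that mark them were read from the same arrays. Of 12 skeletal muscle markers 8 were tested, of which Des, Myod1 and Chrna1 rose and 5 did not pass, and the summed signal of the 12 was 22251 and 23270 in Eed cKO cells, against 22737 and 23458 in Wt cells. Of 6 smooth muscle markers 2 rose (Cnn1 by 0.97 and Tagln by 0.29), 2 fell (Acta2 and Smtn) and 1 did not pass, with sums of 35564 and 36548 in Eed cKO cells and 39728 and 41695 in Wt cells. Of 9 neuronal markers 6 stayed under the filter and 3 did not pass, with sums of 5746 and 6169 in Eed cKO cells and 5837 and 5864 in Wt cells. Of 7 Schwann cell markers Mbp rose and 5 did not pass (sums 16123 and 16094 in Eed cKO cells, 15282 and 15769 in Wt cells). Of 6 endothelial markers Cdh5 rose and 4 did not pass (sums 6084 and 6391 in Eed cKO cells, 5512 and 5493 in Wt cells). Of 7 macrophage markers C1qb fell and 5 did not pass (sums 10577 and 9411 in Eed cKO cells, 9889 and 9666 in Wt cells), and of 5 red cell markers Alas2 fell and 3 did not pass (sums 17824 and 15630 in Eed cKO cells, 16759 and 17947 in Wt cells). Fibroblast and perichondrium markers rose in 4 of 7 genes, with 1 that fell, and summed to 70820 and 75618 in Eed cKO cells, against 62765 and 66307 in Wt cells. Both Eed cKO sums were above both Wt sums for Schwann cell, endothelial and fibroblast markers, and under both for smooth muscle markers. A sum follows its bright genes and is no measure of cell numbers. Acta2 had 19758 and 20498 in Eed cKO cells, against 23898 and 25685 in Wt cells, while Cnn1 and Tagln rose. Prrx1 had 16888 and 16187 in Eed cKO cells, against 9878 and 9999 in Wt cells, while Dcn fell. S100b, the brightest Schwann cell marker, had 9999 and 9044 in Eed cKO cells and 9890 and 9920 in Wt cells. Among all tested genes, taken singly, 31.1% had both Eed cKO values above both Wt values and 29.1% had them below, while 9.63% rose and 5.98% fell. The first 2 shares are no like reference for a sum over several genes. The lowest mean signal of any marker was 154, in the neuronal list. The part of such cells in the channel results was not tested, and in RNA of a whole culture fewer cells of a type and less RNA per cell cannot be told apart.

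Of 23 Trp members 9 were tested, of which 1 rose, 1 fell and 7 did not pass, shares of 11.1% each way where 9.63% of all tested genes rose and 5.98% fell. Trpm5 lay under the filter level in Wt cells and Trpc4 in Eed cKO cells, so both shares rest on genes that entered through the other group. Trpm5, a calcium-activated channel known from taste cells, had 952 and 829 in Eed cKO cells, against 657 and 587 in Wt cells (0.50, SE 0.10, limma adjusted p = 0.0192), a call lost without Wt 2 (0.089). Trpc4, a receptor-operated channel, had 663 and 488 in Eed cKO cells, against 899 and 822 in Wt cells, and fell by 0.57 (SE 0.14, limma adjusted p = 0.0377). The 2 Eed cKO values of Trpc4 lay far apart, and its difference was -0.78 without Eed cKO 1 and -0.36 without Eed cKO 2. Its call was lost without Wt 1 (0.0809) or with the intensity trend left out (0.0657). Trpv4, the osmosensor and load sensor of chondrocytes, had 18111 and 18242 in Eed cKO cells, against 16361 and 17325 in Wt cells, with the groups apart by less than the gap between the Wt arrays. It did not pass (0.11, 95% interval 0.02 to 0.20, limma adjusted p = 0.0956), although it did with quantile normalization (0.13, limma adjusted p = 0.0478). Trpm7, a magnesium-permeable channel with a kinase domain, had 5283 and 5449 in Eed cKO cells and 5877 and 5776 in Wt cells, and did not pass (-0.12, limma adjusted p = 0.159). Trpc4ap, the binding protein, was at -0.03 (95% interval -0.13 to 0.07). Trpa1, the only member of its family, had 196 and 273 in Eed cKO cells and 199 on each Wt array, under the filter.

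Among ClC proteins Clcn6, an exchanger of late endosomes best known from nerve cells, was the single gene to pass. It had 3148 and 3064 in Eed cKO cells, against 2675 and 2434 in Wt cells (0.28, SE 0.07, limma adjusted p = 0.0399). This was the least stable call of the set, lost with quantile normalization (0.067), in the fit that left out the intensity trend (0.0555), and without Eed cKO 1 (0.0694), Wt 1 (0.0624) or Wt 2 (0.282). Of 7 ClC genes tested 6 did not pass, with differences from -0.28 to 0.11. The share that rose was 14.3%, where 9.63% of all tested genes rose. Clcn5, an endosomal exchanger on the X chromosome, had 4864 and 4975 in Eed cKO cells and 4925 and 4664 in Wt cells.

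The genes beside the channels were read from the same arrays. For the 21 genes that passed, the nearest protein-coding genes on both sides in the RefSeq order included 40 that are named on the array and reported here. Of these 1 rose, 1 fell, 27 did not pass and 11 stayed under the filter, where 15.6% of all tested genes passed in either direction. Whether the neighbours differ from other genes was not tested. Dlg5, next to Kcnma1, rose by 0.44 (limma adjusted p = 0.00324). Around Ano3, Muc15 had 176 and 214 in Eed cKO cells and 274 and 175 in Wt cells, and A26c3 had 205 and 208 in Eed cKO cells and 305 and 349 in Wt cells, so both stayed dim.

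Other channels, pumps and exchangers that work beside these genes were read from a list set by name. Of 76 other channel genes on the array 47 were tested, of which 7 rose, 2 fell and 38 did not pass (median 0.07). Of all tested genes 9.63% rose and 5.98% fell, and neither list was tested as a set. Ttyh2, an anion channel relative, had 9983 and 10534 in Eed cKO cells, against 7016 and 7239 in Wt cells (0.52, SE 0.05, limma adjusted p = 0.000949). Lrrc8e, a subunit of the volume-regulated anion channel, rose by 0.50, Itpr1, the calcium release channel opened by inositol trisphosphate, by 0.40, and Ttyh3 by 0.30 (limma adjusted p = 0.00834, 0.00859 and 0.0255). Clic6 fell by 0.48 and Tmem63a, a channel opened by osmotic stretch, by 0.21 (limma adjusted p = 0.00832 and 0.0266). Of 36 pump and exchanger genes 28 were tested, of which 4 rose, 2 fell and 22 did not pass (median 0.04), beside the same 9.63% and 5.98% of all tested genes. Atp2b4, a pump that drives calcium out of the cell, had 1742 and 1708 in Eed cKO cells, against 776 and 821 in Wt cells (1.08, SE 0.08, limma adjusted p = 0.000358). Fxyd1, a regulator of the sodium pump, rose by 0.30, Slc8b1, the mitochondrial sodium-calcium exchanger, by 0.38 and Slc12a7, a potassium-chloride cotransporter, by 0.28 (limma adjusted p = 0.017, 0.0209 and 0.0448). Atp1b2, a beta subunit of the sodium pump, had 3290 and 2412 in Eed cKO cells, against 4695 and 4398 in Wt cells (-0.68, SE 0.13, limma adjusted p = 0.0168). Fxyd6, another regulator of that pump, had 6777 and 6536 in Eed cKO cells, against 10645 and 12621 in Wt cells (-0.80, SE 0.08, limma adjusted p = 0.00132).

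Of the 21 calls among ion channel genes, 12 were lost under none of the alternatives that tested them except the methods' t-test with Benjamini-Hochberg adjustment. These included Ano1, Ano3, Cacna1d, Cacnb2, Cacnb3, Kcna6, Kcnip3, Kcnma1, Kcnn4, Kcns1 and Scn3b. The other 9 calls were lost under at least 1 more alternative, and no gene that passed changed sign under any of them. At an unadjusted p under 0.05 the methods' t-test called 24 of the tested members, where it called 19.7% of all tested genes.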

How the data were processed

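The authors deposited a linear intensity for each of 35512 probe sets on 4 arrays. A supplementary sheet of the study carries dChip signal in its name, but how background was corrected, how arrays were normalized and which annotation build was taken stands as not given in the sources used here. Ratio columns of cKO over control, which the authors deposited in the same table, were left unused. Intensities in the other deposited table were identical (largest difference 0). Array medians were equal within 1%, so no normalization was added. Precision is limited by the number of arrays.

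Gene names were updated through RefSeq genes of GRCm38.p6 (18660 probe sets by accession, 2423 by symbol, 1957 by an older name, 2135 kept, 10337 without a name), which gave 22305 genes with the brightest probe set each. Members were found by the symbol in the file (194 probe sets, 173 genes), which is printed, and 3 of these symbols have a newer form. Some genes are not reported here by name, and counts include those that met the rule. Genes with a mean signal under the 33rd percentile were left out, which kept 14944. Log2(intensity + 32) was tested with limma 3.58.1 in R 4.3.3 (lmFit, eBayes with an intensity trend, two-sided, group as the single term), with Benjamini-Hochberg adjustment across those kept. The test was tried on simulated arrays with known changes. The methods name an unpaired t-test in general and none for the arrays.

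Members and lists were chosen with earlier results of these data known. Named genes were Eed, all members past an adjusted p of 0.05, the 10 of highest signal, the brightest of each family, and of the other lists up to 4 genes in each direction, with any further gene said to be chosen later or named as a neighbour or marker. The alternatives tried were other filters, pseudocounts, no trend, quantile normalization, the t-test, a replicate block, each array left out, the mean over probe sets and the second table.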

Additional observations from a re-analysis of the deposited data

How the results depend on the processing

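With 2 arrays a group the limma fit had 6.91 degrees of freedom, part of which come from the variance shared over genes and not from the arrays of a gene. Leaving out an array leaves 1 in its group, which is then assumed to vary like the other. The main counts were 17 members that rose and 4 that fell. Without a filter, with a smaller or larger pseudocount or with the second table, the counts were the same. Under the filter at the median signal 10 rose and 2 fell, because 9 of the 21 called genes were no longer tested. With the methods' t-test and Benjamini-Hochberg adjustment 0 members rose and 0 fell, as for both other lists (0 and 0 each), while 24 members had an unadjusted p under 0.05 by that test, where 19.7% of all tested genes did. With an array left out, members that rose numbered 13 to 19 and those that fell 2 to 4, with 2 that fell without Wt 1. Other channels that rose then numbered 3 to 5 (3 without Wt 2) and those that fell 1 to 4 (1 without Wt 1 or Wt 2, 4 without Eed cKO 1), where 7 and 2 did on all arrays. Pumps and exchangers that rose numbered 2 to 5 (2 without Wt 1 or Wt 2) and those that fell 2 to 3, where 4 and 2 did on all arrays. The filter at the median left 1 other channel that fell, and the fit without the trend 4 that rose and 1 that fell. The replicate number as a block gave 18 members that rose and 4 that fell, 4 other channels and 4 pumps and exchangers that fell, and lost no call among the members. Deviations of arrays with the same number had a correlation of -0.064 across genes, which from 2 arrays a group does not show a pairing. The study set cKO mice against littermates, but the labels do not say that a replicate number marks a litter, and whether the numbers pair the samples was not settled. Of the 10 genes named by the rule that were tested and did not pass, the sign turned in 5 when an array was left out, and other members that did not pass were not examined in this way. Ano6 ran from -0.07 to 0.09 (-0.01 without Eed cKO 1 and -0.07 without Wt 2), Kcnk12 from -0.06 (without Eed cKO 2) to 0.13, Clcn5 from -0.00 (without Wt 2) to 0.08, Kcnab2 from -0.13 to 0.03 (without Eed cKO 1) and Cacng7 from -0.15 to 0.04 (without Wt 1). Apart from the filter at the median, the cause of these shifts was not tested. Except for the unadjusted t-test, shares of all tested genes in the other fits are not given beside these counts. Whether a changed count is particular to ion channel genes was therefore not shown.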

Other observations

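The X chromosome holds 5 of the 173 ion channel genes, of which 3 were tested. Besides Kcne1l, which rose, Clcn5 and Kcnd1 did not pass, and Kcnd1, chosen after its values were seen, had 1361 and 1328 in Eed cKO cells and 1285 and 1264 in Wt cells.

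Besides Scn2a1, 5 of the members had more than 1 probe set. The 2 probe sets of Ano3, of Cacna2d1 and of Scn3a were each higher in Eed cKO cells without overlap, those of Scn9a overlapped, and of 3 for Kcnh8, 2 were lower without overlap and 1 overlapped. Scn2a1 stood apart with 16 probe sets whose second brightest had 866 and 948 in Eed cKO cells and 984 and 1081 in Wt cells, lower by 0.18, next to a brightest that was higher by 0.59.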
